A study of Rattus norvegicus with 10 samples.

Results

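The genes described here encode the constitutive proteasome, its regulatory particle and its activators, measured in the kidney cortex of salt-loaded rats with and without oxonic acid. Members were the protein-coding rows of the deposited gene table whose symbol starts with Psm, goes on with a letter from a to f and ends in a number, leaving out the 3 immune subunits Psmb8, Psmb9 and Psmb10. That rule took 40 of 32545 genes and used no measured value. A filter on low values (a mean of at least 0.5 FPKM, the fragments per kilobase of gene after scaling for library size) left 37 members among 14508 genes tested. The 3 members below it were Psma8, Psmb11 and Psme1. Psme3, the remaining gene of the Psme family, was not analysed here.

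The proteasome is the large protease that degrades ubiquitin-tagged proteins to short peptides. Its core particle is a barrel of alpha rings, which gate the entrance, around beta rings, whose subunits Psmb5, Psmb6 and Psmb7 carry the chymotrypsin-like, caspase-like and trypsin-like active sites. A regulatory particle caps the barrel: a ring of ATPases (Psmc genes) unfolds substrates, and non-ATPase subunits (Psmd genes) bind and remove ubiquitin. In cells exposed to interferon, Psmb8, Psmb9 and Psmb10 replace Psmb5, Psmb6 and Psmb7, and in kidney tubules, which take up and turn over much filtered protein, the constitutive form is the common one.

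All animals were Dahl salt-sensitive rats (SS/JrHsdMcwi, an inbred line whose blood pressure rises on salt), labelled wildtype, of a study design that used both sexes; the labels give no sex per sample. They ate 0.4% NaCl, received telemeters at 8 to 9 weeks of age and were recorded for 4 days, and then ate 4% NaCl for 3 weeks. One group (5 libraries, labelled oxonic acid) had 2% oxonic acid, an inhibitor of uricase, in that diet, and the other (5 libraries, labelled vehicle) did not. Kidneys were perfused with buffered saline and 1 was frozen, and the labels give cortex as the part sequenced. The labels do not tie each library to its own rat, so p-values reflect how much these samples differ within a group, and some of that may be technical.

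Reads in genes, computed back from the FPKM, numbered 14.5 to 18.5 M (mega) per library. Proximal tubule markers were abundant in every library, the phosphate transporter Slc34a1 at 1441 to 2021 FPKM. Vehicle library 4 stood apart: transcripts of the mitochondrial genome took 9.23% of its reads against 11.3% to 13.5% in the other 9. The inner medulla marker Slc14a2 measured 16.0 FPKM in oxonic acid library 3 and at most 0.505 FPKM in the other 9 libraries. That symbol is carried by 2 gene IDs, and only the ID with the higher mean was used. Of 14508 genes, 0 passed an adjusted p of 0.05 in limma (0% of those tested), while at an unadjusted p under 0.05 there were 750 lower with oxonic acid (5.17%) and 627 higher (4.32%). Scaled to equal total reads, that split was 1192 lower and 383 higher of 14514 genes.

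Promoter sequences of RefSeq (rat build GRCr8, from 250 bases before to 50 after the annotated start) were matched by symbol for 35 of the 40 members, all but Psma7, Psmb11, Psmd6, Psmd12 and Psmd14. Proteasome genes are known to be driven together by the transcription factor Nfe2l1, so each window was searched on both strands for TGACNNNGC, the letters of its antioxidant response element. It was searched likewise for CCAAT, bound by the factor NF-Y, and CCGGAAG, bound by ETS factors. TGACNNNGC was in 8 of 35 member promoters (22.9%), against 12.1% of all 33469 promoters and 14.6% of those of tested genes. CCGGAAG was in 12 of 35 (34.3%), against 8.75% and 16.0%, and CCAAT in 17 of 35 (48.6%), against 37.5% and 36.9%. By role, 3 of 7 beta ring promoters and 0 of 6 ATPase promoters held TGACNNNGC, while CCGGAAG was in 3 of 6 ATPase promoters and 4 of 8 of the base and lid. At least 1 motif was in 28 member promoters and none in 7. The median GC content was 56.0% in the member promoters and 51.7% in all. Such matches of letters are a description and show no binding.

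The windows printed here are those of the active-site gene Psmb5, its ring neighbour Psmb2, and Psme4, whose values were higher in every oxonic acid library than in any vehicle library. Each is written 5′ to 3′ along the gene's own strand. Capitals mark TGACNNNGC, read on the reverse strand in Psme4. In Psmb2 a CCAAT ends on the first capital and shares 1 base with it. The Psmb5 window lies at chr15:32047411-32047459 on the minus strand, the Psmb2 window at chr5:144254970-144255018 on the plus strand and the Psme4 window at chr14:108706568-108706616 on the plus strand.
Psmb5: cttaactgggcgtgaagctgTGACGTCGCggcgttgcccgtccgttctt
Psmb2: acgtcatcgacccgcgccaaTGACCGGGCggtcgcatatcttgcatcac
Psme4: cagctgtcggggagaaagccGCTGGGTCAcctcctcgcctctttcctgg

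Psmb6 and Psma3 held the same motif closer to the start, as TGACGGAGC beginning 24 bases before it and as GCCGGGTCA beginning 12 bases before it. The next windows show CCGGAAG, in capitals, in the most abundant core gene, Psmb4, and in the ATPase genes Psmc2 and Psmc6. It is read on the reverse strand in Psmb4 and Psmc2. The Psmb4 window lies at chr2:185134557-185134603 on the minus strand, Psmc2 at chr4:14162380-14162426 on the minus strand and Psmc6 at chr15:21022225-21022271 on the plus strand.
Psmb4: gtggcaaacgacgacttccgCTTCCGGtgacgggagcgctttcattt
Psmc2: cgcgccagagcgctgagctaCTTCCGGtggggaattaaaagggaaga
Psmc6: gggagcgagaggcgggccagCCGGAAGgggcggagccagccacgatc

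Transcripts of the barrel and cap were abundant in the cortex and spanned a narrow range of levels per length. Mean FPKM over the 10 libraries ran from 29.9 for Psma3 to 182 for Psmb4 in the core particle and from 24.6 for Psmd14 to 88.2 for Psmd2 in the regulatory particle. The median was 88.0 FPKM over the 14 measured core genes and 58.0 over the 17 of the regulatory particle. Psmd5 and Psmd9, chaperones of the ATPase ring, had means of 23.0 and 16.7 FPKM, and Psmd10 (gankyrin), another such chaperone, 2.58 FPKM. The activator genes Psme2 and Psme4 averaged 46.6 and 18.7 FPKM and the inhibitor gene Psmf1 29.7 FPKM, so Psme2 and Psmf1 lay within the range of the particle genes. Psmd10 rested on 9 to 33 reads per library, and every other measured member on at least 307. The low level of Psma3 was computed with a table length of 3559 bp, against 874 to 1174 bp for the other alpha genes measured.

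**Figure D1:**
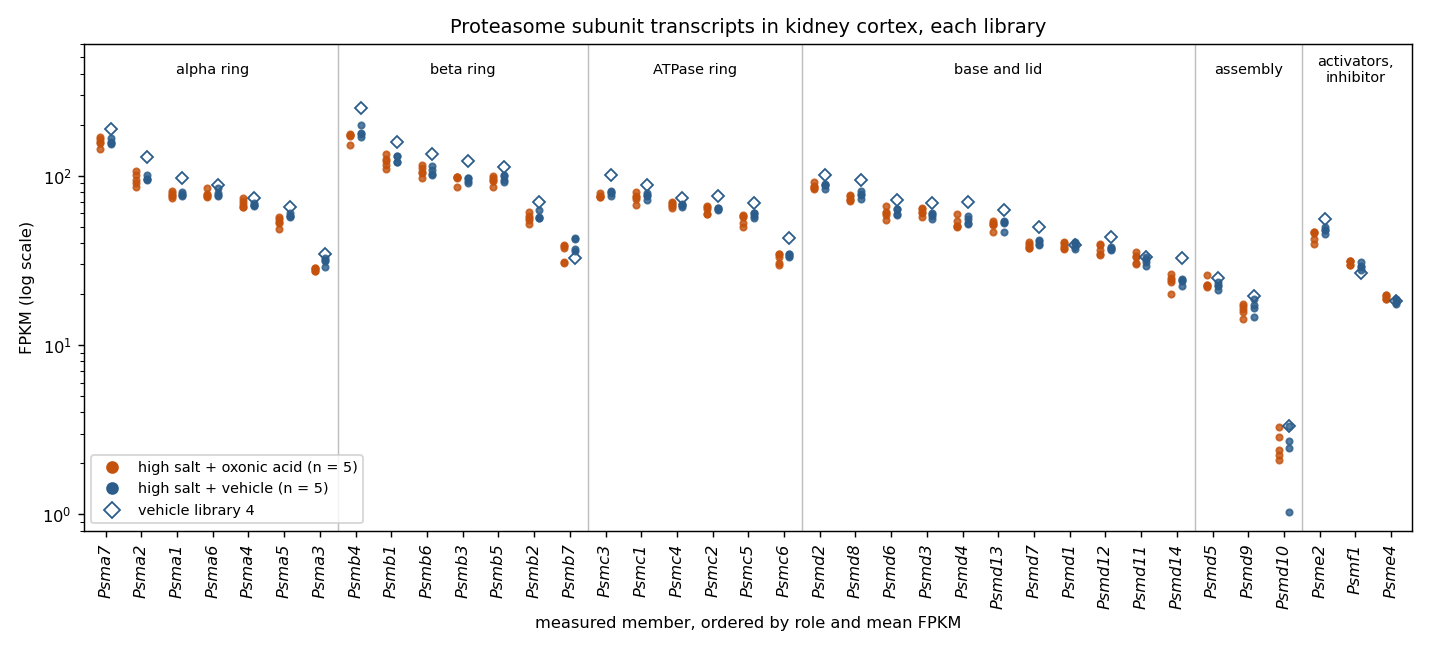
FPKM on a log scale (y axis) of the 37 measured members, ordered by role and mean (x axis), with 1 point per library. The open diamond is vehicle library 4, which is the highest of the 10 libraries for 31 of 37 members.

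Members differed little between libraries. The median SD over the 10 libraries was 0.116 on the log2 scale for the members and 0.187 for all genes tested. The members' median level was also higher, 58.4 FPKM against 8.46 FPKM, and the comparison does not allow for level. Over lists of related genes the median SD ran from 0.0866 (ubiquitin shuttles and segregase) to 0.286 (immune subunits). Psmd1, a scaffold of the base, varied least, with a coefficient of variation of 3.58%, and among members other than Psmd10 the largest were Psmb4 at 14.6% and the lid deubiquitinase Psmd14 at 12.9%. Vehicle library 4 was the highest of the 10 libraries for 31 of 37 members (83.8%), while it was highest for 22.4% of all genes tested. The members exceeded the mean of the other 4 vehicle libraries there by a median of 0.24 on the log2 scale, against 0.01 for all genes. Oxonic acid library 2 was the lowest of the 10 for 19 members (51.4%), while it was lowest for 12.0% of all genes tested.

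With oxonic acid, most proteasome subunits measured slightly lower, and none of the differences passed the test. The mean log2 difference (oxonic acid minus vehicle, on log2(FPKM + 0.5)) was below 0 for 31 of 37 members, with a median of -0.08. Over all genes tested 48.2% were below 0 and the median was 0.01. Unadjusted limma p-values under 0.05 were seen for 3 of 37 members, all lower: Psma3, Psma5 and the activator gene Psme2. Of all genes tested, 5.17% were lower at that threshold. The count of members depended on the setting. Scaled to equal total reads, it was 8 of 37 members lower, against 8.21% of all genes. With limma voom on the recovered reads it was 7 of 37, against 7.71% of all genes. It was 1 of 37 with the runs of sample numbers as a block (3.23% of all genes) and 1 of 37 without oxonic acid library 2 (3.72%). Without vehicle library 5 it was 5 of 37 lower (5.58% of all genes) and 1 higher. The groups did not overlap for Psma3 (lower with oxonic acid, as for 0.965% of genes tested) and Psme4 (higher, as for 0.944%).

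The shift of the members as a whole moved with single libraries and with the runs of sample numbers. Without vehicle library 4, 27 of 37 members were below 0, with a median of -0.02 against 0.01 for all genes, and 2 members were lower at an unadjusted p under 0.05, as were 4.95% of all genes. Without oxonic acid library 2 the median was -0.05. The sample numbers in the labels fall in 3 runs, of which run A holds no vehicle library, and the labels do not call them batches. Within run B (1 oxonic acid and 3 vehicle libraries) the median was -0.02 with 22 of 37 below 0, within run C (1 and 2 libraries) it was -0.12 with 33, and with the runs as a block it was -0.05. Leaving out both vehicle library 4 and oxonic acid library 3, an alternative chosen after the data were seen, gave 27 of 37 and a median of -0.01. Apart from Psmd10, the 95% intervals of the members ran from -0.40 at the lowest (Psmb4, 0.756-fold) to 0.21 at the highest (Psmf1, 1.15-fold), and 33 of these 36 held 0. Shifts of 1.5-fold in either direction lay outside all 36 intervals. In bulk tissue, a different mix of cells and a different amount of RNA per cell cannot be told apart.

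**Figure D2:**
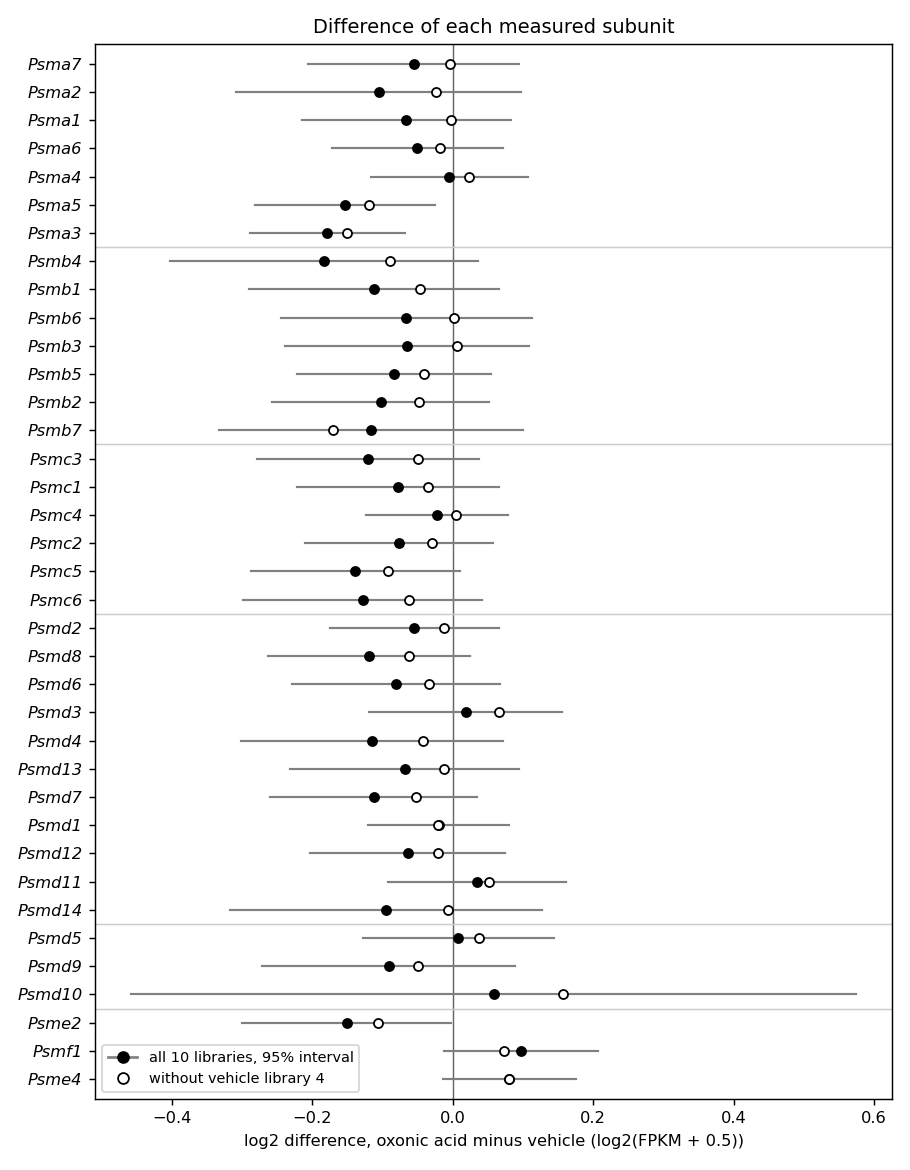
Log2 difference (x axis, oxonic acid minus vehicle) of each measured member (y axis, by role), with filled circles and 95% intervals from all 10 libraries and open circles from the 9 without vehicle library 4. The median moves from -0.08 to -0.02 when that library is left out.

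In the core particle all 14 measured genes were below 0, with a median of -0.09; without vehicle library 4 it was 11 of 14, with a median of -0.03. The core median was -0.06 without oxonic acid library 2, -0.05 with the runs as a block and -0.05 within run B. Psma3, a subunit of the alpha ring, measured 28.5, 27.5, 27.3, 27.9 and 28.6 FPKM in oxonic acid libraries 1 to 5 and 31.6, 32.7, 29.1, 34.3 and 31.2 FPKM in vehicle libraries 1 to 5. Every oxonic acid library was below every vehicle library, the closest pair being 28.6 and 29.1. The means were 28.0 ± 0.570 FPKM (SD, n = 5) and 31.8 ± 1.93 FPKM (SD, n = 5), a log2 difference of -0.18 (SE 0.0503). It did not pass (limma adjusted p = 0.370, unadjusted 0.00448), and without vehicle library 4 it was -0.15. In the table's coordinates (genome build not given in the sources used here) Psma3 lies on chromosome 6 from 93423002 to 93444240 on the plus strand.

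Psma5, another alpha subunit, measured 57.3, 48.6, 53.4, 55.8 and 52.9 FPKM with oxonic acid and 57.5, 60.4, 57.2, 65.7 and 57.7 FPKM with vehicle. Oxonic acid library 1 was above the lowest vehicle library, so the groups overlapped, while the other 4 lay below all vehicle libraries. The log2 difference was -0.15 (SE 0.0583; limma adjusted p = 0.457). Psma7, the most abundant alpha gene, averaged 165 ± 14.8 FPKM (SD, n = 5) with vehicle and 159 ± 9.84 FPKM (SD, n = 5) under oxonic acid, and Psma4 had the difference nearest 0 of the ring (-0.0045). The alpha ring's median difference was -0.07, and without vehicle library 4 it was -0.02.

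The beta ring had a median difference of -0.10, with 7 of 7 measured genes below 0, and of -0.05 with 5 of 7 without vehicle library 4. Psmb5, which carries the chymotrypsin-like site, measured 96.9, 85.3, 94.6, 93.1 and 99.0 FPKM with oxonic acid and 94.9, 100.4, 99.2, 112 and 91.2 FPKM with vehicle. The groups overlapped over most of their range, and the log2 difference was -0.08 (SE 0.0626; limma adjusted p = 0.678). Psmb6, with the caspase-like site, ran from 96.7 to 116 FPKM with oxonic acid and from 101 to 134 FPKM with vehicle, a difference of -0.07 that was 0.0022 without vehicle library 4. Psmb7, with the trypsin-like site, ran from 30.3 to 39.2 FPKM with oxonic acid and from 32.7 to 42.9 FPKM with vehicle, a difference of -0.12. It was the beta gene of which vehicle library 4 had the lowest vehicle value, and it overlaps Nek6 on the opposite strand over 17494 bp of its 80959 bp. The strand setting of the counting was not given in the sources used here.

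Psmb4, a non-catalytic beta subunit and the most abundant member, measured 176, 152, 173, 173 and 173 FPKM with oxonic acid and 178, 176, 198, 250.3 and 169 FPKM with vehicle. Vehicle library 4 lay far above the rest and oxonic acid library 2 below the rest. The log2 difference of -0.18 (SE 0.0997; limma adjusted p = 0.575) was -0.09 without vehicle library 4. Psmb2, also non-catalytic, measured 60.7, 54.5, 56.3, 52.0 and 57.6 FPKM with oxonic acid and 56.4, 56.3, 62.8, 70.2 and 57.2 FPKM with vehicle. The groups overlapped, and its difference of -0.10 was -0.05 without vehicle library 4.

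**Figure D3:**
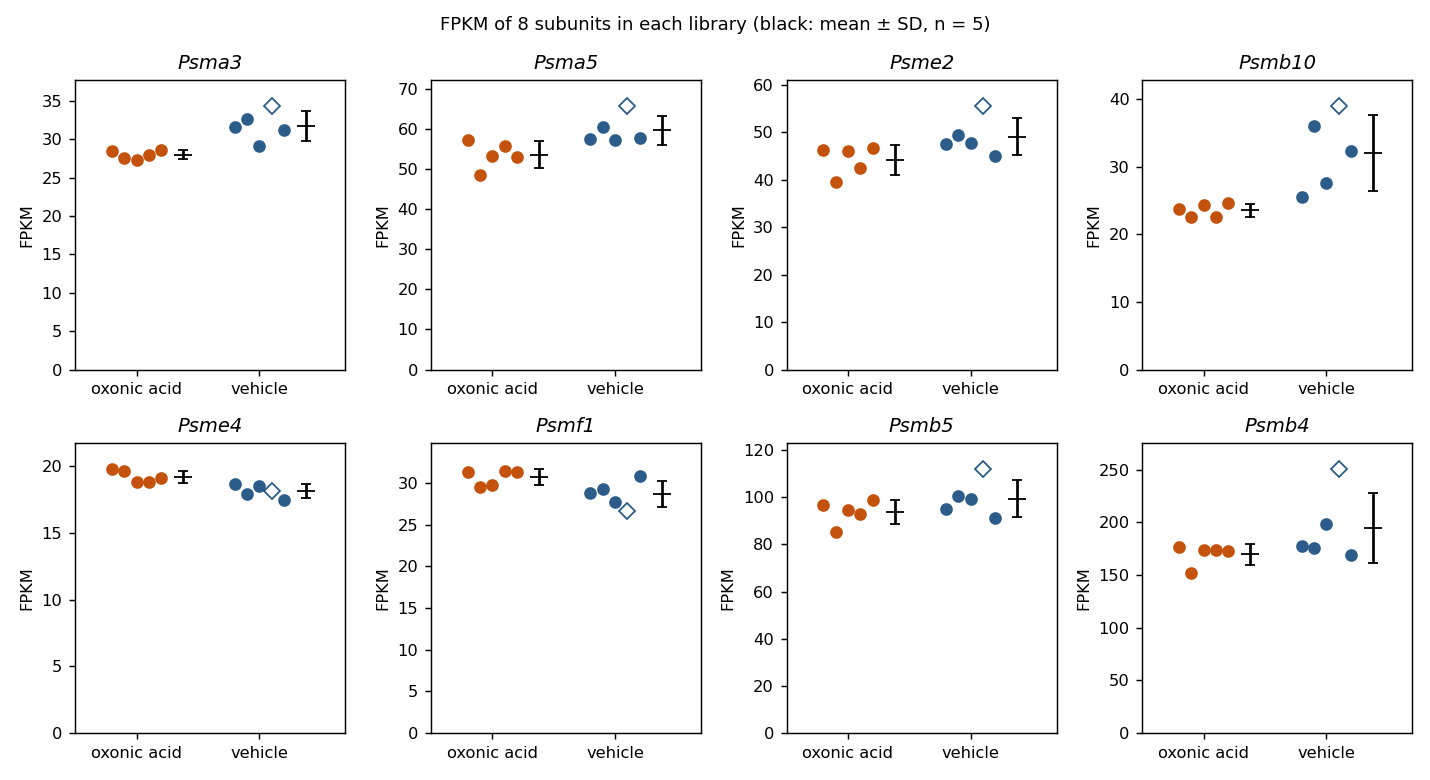
FPKM (y axis) of 8 genes in each library (points; open diamond, vehicle library 4), with the mean ± SD of 5 libraries in black. Psma3 and the immune subunit Psmb10 are lower in all 5 oxonic acid libraries and Psme4 is higher in all 5, while the groups of Psma5, Psme2, Psmf1, Psmb5 and Psmb4 overlap.

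In the regulatory particle 15 of 17 genes were below 0 (median -0.08), and 14 of 17 without vehicle library 4 (median -0.03); none had an unadjusted p under 0.05. The median was -0.00099 within run B, -0.13 within run C, -0.05 with the runs as a block and -0.04 without oxonic acid library 2. All 6 ATPase genes were below 0. Psmc5, the ATPase gene with the smallest p, measured 58.9, 49.8, 52.4, 57.1 and 57.5 FPKM with oxonic acid and 60.6, 56.5, 57.5, 69.2 and 60.1 FPKM with vehicle. Its 3 highest oxonic acid libraries lay within the vehicle range, and the log2 difference was -0.14 (SE 0.0676; limma adjusted p = 0.541). Psmc3, the most abundant ATPase gene, measured 79.4, 75.8, 74.99, 76.2 and 74.7 FPKM with oxonic acid and 79.7, 75.9, 78.6, 101 and 81.4 FPKM with vehicle, vehicle library 4 lying above the rest. Psmc6, the least abundant, showed the same arrangement, at 29.6 to 34.6 FPKM, 32.9 to 34.4 FPKM and 42.6 FPKM. Their differences of -0.12 and -0.13 were -0.05 and -0.06 without that library.

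Among the 11 base and lid genes 9 were below 0, with a median of -0.07. Psmd8, a lid subunit, had the smallest p, measuring 76.7, 72.1, 71.4, 72.4 and 76.3 FPKM with oxonic acid and 77.9, 80.99, 76.5, 93.7 and 72.8 FPKM with vehicle. Vehicle libraries 3 and 5 lay below the highest oxonic acid library, so the groups overlapped, and the log2 difference was -0.12 (limma adjusted p = 0.577), or -0.06 without vehicle library 4. Psmd7, the lid partner of the deubiquitinase Psmd14, measured 40.7, 37.2, 39.6, 38.3 and 37.6 FPKM with oxonic acid and 40.9, 39.3, 41.4, 49.5 and 38.9 FPKM with vehicle. Vehicle library 4 lay above the other 9, and the difference of -0.11 was -0.05 without it. Psmd14 itself differed by -0.10. Psmd14 ran from 20.1 to 26.1 FPKM with oxonic acid and from 22.4 to 24.5 FPKM in 4 vehicle libraries, with 32.4 FPKM in vehicle library 4, and without that library its difference was -0.01. The ubiquitin receptor Psmd4 differed by -0.11 and Psmd2, the base subunit that docks ubiquitin shuttles, by -0.05. The genes above 0 in the particle were Psmd11, a lid scaffold, at 0.04 and Psmd3 at 0.02. Psmd11 ran from 29.98 to 35.3 FPKM with oxonic acid and from 29.4 to 33.1 FPKM with vehicle.

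The Psmd chaperones that leave the particle once it is built did not share one direction. Psmd9 differed by -0.09, Psmd5 by 0.01 and Psmd10 by 0.06. Psmd10 measured 2.88, 2.23, 3.26, 2.41 and 2.10 FPKM with oxonic acid and 1.03, 3.31, 2.70, 3.35 and 2.48 FPKM with vehicle. Vehicle library 1 was the lowest of the 10, and without it the difference was -0.17.

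The activators and the inhibitor were mixed in direction, with 2 of 3 above 0. Psme4 encodes a large single-chain activator that opens the barrel without ATP; it measured 19.8, 19.6, 18.8, 18.8 and 19.1 FPKM with oxonic acid and 18.7, 17.9, 18.6, 18.1 and 17.5 FPKM with vehicle. The groups did not overlap, though the nearest libraries differed by less than the SD within a group. The means were 19.2 ± 0.453 FPKM (SD, n = 5) and 18.1 ± 0.498 FPKM (SD, n = 5), a log2 difference of 0.08 (SE 0.0432) that did not pass (limma adjusted p = 0.568) and was 0.08 without vehicle library 4. In the table's coordinates it lies on chromosome 14 from 115166416 to 115269056 on the plus strand.

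Psmf1, an inhibitor of the core particle in the test tube, measured 31.3, 29.5, 29.8, 31.4 and 31.3 FPKM with oxonic acid and 28.8, 29.3, 27.7, 26.7 and 30.9 FPKM with vehicle. It was the member with the highest difference, 0.10 (SE 0.05004; limma adjusted p = 0.560), and vehicle library 4 was its lowest. Psme2, a subunit of the interferon-inducible activator, went the other way, at 46.2, 39.4, 46.0, 42.4 and 46.6 FPKM with oxonic acid and 47.6, 49.5, 47.8, 55.5 and 45.1 FPKM with vehicle. Only vehicle library 5 of its group lay within the oxonic acid range, and the difference was -0.15 (SE 0.0677; limma adjusted p = 0.522). Without vehicle library 4 it was -0.11.

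The 3 members below the filter were near 0 in every library. Psma8, the alpha subunit of the testis proteasome, was at 0 in all 10. Psmb11, the beta subunit of the thymus, was at 0 in 5 and at most 0.152 FPKM in the others. Psme1, the partner of Psme2, was listed at 0 to 0.211 FPKM, from at most 4 reads, while Psme2 averaged 46.6 FPKM. The table's Psme1 shares 2574 of its 2877 bp with Emc9 on the opposite strand. How reads in a shared stretch were assigned was not stated in any label or file.

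The immune subunits, left out by the rule, were lower with oxonic acid in all 3 cases, and none passed. Psmb10 measured 23.7, 22.6, 24.3, 22.5 and 24.7 FPKM with oxonic acid and 25.5, 36.1, 27.6, 39.0 and 32.3 FPKM with vehicle. Every oxonic acid library was below every vehicle library, and the log2 difference was -0.42 (SE 0.105; limma adjusted p = 0.333), or -0.35 without vehicle library 4. Psmb9 differed by -0.32 (limma adjusted p = 0.401) and Psmb8 by -0.27 (limma adjusted p = 0.786).

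Each immune subunit was set against the constitutive subunit it replaces within each library, as FPKM per 100 FPKM, in 3 comparisons. Psmb9 per 100 of Psmb6 was 13.0, 12.4, 14.1, 12.3 and 12.6 with oxonic acid and 13.96, 17.2, 13.6, 15.8 and 16.9 with vehicle. Means were 12.9 ± 0.746 (SD, n = 5) and 15.5 ± 1.64 (SD, n = 5), with overlap through oxonic acid library 3. The log2 difference was -0.26 (two-sided exact permutation p = 0.0238, adjusted over the 3 ratios 0.0714), which did not pass. Without vehicle library 3 it was -0.31 and did (exact permutation, adjusted p = 0.0476). Leaving out any other single library gave an adjusted p of 0.0714 to 0.143 (exact permutation), none passing. Psmb10 per 100 of Psmb7 was 67.7 ± 9.08 (SD, n = 5) and 85.2 ± 21.1 (SD, n = 5), a log2 difference of -0.31 (exact permutation p = 0.103, adjusted 0.155). It was -0.18 without vehicle library 4 and -0.63 within run C. Psmb8 per 100 of Psmb5 was 5.14 ± 2.44 (SD, n = 5) and 5.66 ± 1.56 (SD, n = 5), a log2 difference of -0.23 (exact permutation p = 0.571, adjusted 0.571). This ratio hung on single libraries, with -0.03 without oxonic acid library 2 and -0.43 without oxonic acid library 5, and was 0.13 within run C. The smallest p that 5 against 5 libraries allow is 0.00794.

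**Figure D4:**
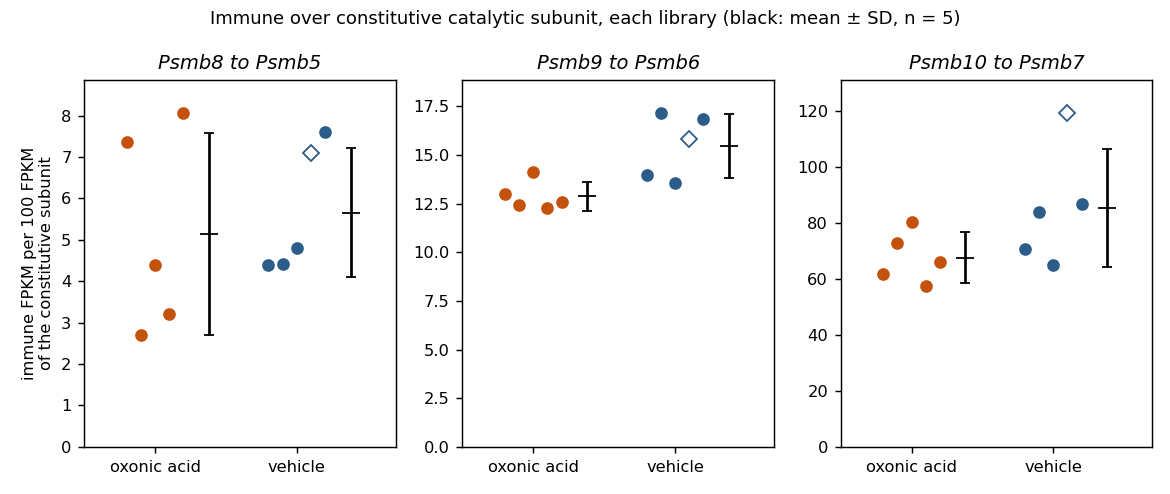
Immune subunit FPKM per 100 FPKM of its constitutive counterpart (y axis) in each library, with the mean ± SD of 5 libraries in black; open diamonds are vehicle library 4. The groups overlap in all 3 ratios, and vehicle library 4 has the highest Psmb10 to Psmb7 ratio, 119.

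Marker genes of other cells and of injury measured both lower and higher with oxonic acid beside these genes, and 0 markers passed in limma. Of the T cell markers, 6 of 6 were lower with oxonic acid (median -0.45, summed level 25.3 to 26.6 FPKM with oxonic acid and 25.9 to 40.1 FPKM with vehicle; 5 of 6 without vehicle library 4), and of 8 macrophage markers the 7 measured were lower (median -0.28, 124 to 161 FPKM and 159 to 213 FPKM). Tubular injury genes were lower for 6 of 7 (median -0.67, 796 to 1581 FPKM and 1392 to 3320 FPKM, most of it Spp1 at a mean of 1517 FPKM). Cell division genes were lower for 5 of 5 (median -0.41, 11.4 to 17.7 FPKM and 15.4 to 25.6 FPKM). Markers of tubule segments and endothelium mostly measured higher. Of the proximal tubule markers 5 of 6 did (median 0.10, 2726 to 3470 FPKM and 2461 to 3404 FPKM; 4 of 6 without vehicle library 4). Both thick limb markers did (median 0.34, 1190.1 to 2578 FPKM and 1010.0 to 1721 FPKM), as did both of the collecting duct (median 0.32, 106 to 182 FPKM and 89.2 to 115 FPKM). Both of the inner medulla list did too (595 to 757 FPKM and 478 to 607 FPKM, nearly all of it Aqp1). Slc14a2, by its gene ID with the higher mean, was at 0 in 5 libraries, at 16.0 FPKM in oxonic acid library 3 and at most 0.505 FPKM elsewhere. The difference of Slc14a2 thus rested on 1 library, and Aqp1 was also abundant in the 5 libraries where Slc14a2 was at 0. The list therefore does not show a difference in inner medulla content. The 1 endothelial marker measured, Kdr, differed by 0.33 (0.25 without vehicle library 4), the distal convoluted tubule marker Slc12a3 by 0.16, and 1 of 2 podocyte markers was higher. Among the higher markers Aqp1, Kdr and the collecting duct water channel Aqp2 had an unadjusted limma p under 0.05 (limma adjusted p = 0.397, 0.417 and 0.489). Among the lower ones 4 of 7 macrophage, 3 of 6 T cell, 5 of 7 tubular injury and 4 of 5 cell division markers did. Over all genes tested it was 5.17% lower and 4.32% higher. The 4 B cell markers in the table were below the filter. The part of these cells in the proteasome values was not tested.

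Of other genes of the pathway, 0 passed in limma. Of the 5 assembly factors measured, 4 were below 0 (2 of 5 without vehicle library 4), the chaperones Psmg1, Psmg2, Psmg3 and Psmg4 lying between -0.14 and -0.03. Pomp, the maturation factor of the core particle, was listed at 11.04 FPKM in oxonic acid library 3. In the other 9 it was at 0.176 to 1.76 FPKM, and the log2 difference was 1.22 (limma adjusted p = 0.493). The table also holds LOC100911238, whose RefSeq description is a like maturation protein, at a mean of 64.4 FPKM (27.7 to 130.03), so the split of Pomp reads between both is uncertain. That gene was looked up after the values were seen.

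Nfe2l1, the transcription factor that raises proteasome genes when the proteasome is impaired, measured 44.0, 43.8, 48.6, 44.2 and 43.3 FPKM with oxonic acid and 41.6, 43.2, 41.7, 37.4 and 42.3 FPKM with vehicle. Its groups did not overlap, the closest libraries being 43.3 and 43.2 FPKM, with a log2 difference of 0.12 (0.08 without vehicle library 4) that did not pass (limma adjusted p = 0.522). Vehicle library 4, where most subunits were highest, had the lowest Nfe2l1 value. Of the 9 regulators on the list, 5 were below 0 and 1 had an unadjusted p under 0.05.

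Among 7 other particle parts and attached enzymes 5 were below 0, and the largest difference was that of the ubiquitin ligase Huwe1, at 0.26 (limma adjusted p = 0.569) and 0.13 without vehicle library 4. Of 10 shuttle and segregase genes 5 were below 0 (2 without vehicle library 4), between -0.11 for Ufd1l, a cofactor of the segregase Vcp, and 0.07. Of 7 genes of ubiquitin and its activation 4 were below 0, and 2 of them had an unadjusted p under 0.05. The ubiquitin precursor gene Rps27a, named after its value was seen, measured 194, 335, 196, 181 and 180.2 FPKM with oxonic acid and 401, 197, 425, 646 and 441 FPKM with vehicle, a log2 difference of -0.90 (limma adjusted p = 0.389), or -0.73 without vehicle library 4. Oxonic acid library 2 and vehicle library 2 lay away from the rest of their groups, so the groups overlapped. Genes of ribosomal proteins have many near-identical copies, so its value is uncertain. The one with the smallest p was Ubd, an inflammation-induced ubiquitin-like tag, at 31.2 ± 8.67 FPKM (SD, n = 5) and 63.9 ± 16.8 FPKM (SD, n = 5), with no overlap between the groups (log2 difference -1.03, limma adjusted p = 0.327). Of 7 peptidases that act on proteasome products 5 were below 0 and 3 of them had an unadjusted p under 0.05. Erap1, which trims peptides for antigen presentation, was the one with the smallest p, at 11.2 ± 0.354 FPKM (SD, n = 5) and 12.8 ± 0.627 FPKM (SD, n = 5) without overlap (limma adjusted p = 0.370).

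Levels of the gene groups in each library show where the spread lay. The core particle's level, as a mean log2 value relative to the 10-library mean, was 0.03, -0.16, -0.07, -0.03 and -0.01 in oxonic acid libraries 1 to 5 and -0.04, 0.03, 0.03, 0.24 and -0.02 in vehicle libraries 1 to 5. Apart from vehicle library 4 and oxonic acid library 2, both groups lay between -0.07 and 0.03. The regulatory particle had the same extremes, 0.23 in vehicle library 4 and -0.10 in oxonic acid library 2. The activators and the inhibitor as a group stayed between -0.06 and 0.05 in all 10 libraries, but this mean joined genes of opposite direction. In vehicle library 4 Psme2 was the highest of the 10, at 55.5 FPKM, and Psmf1 the lowest, at 26.7 FPKM.

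**Figure D5:**
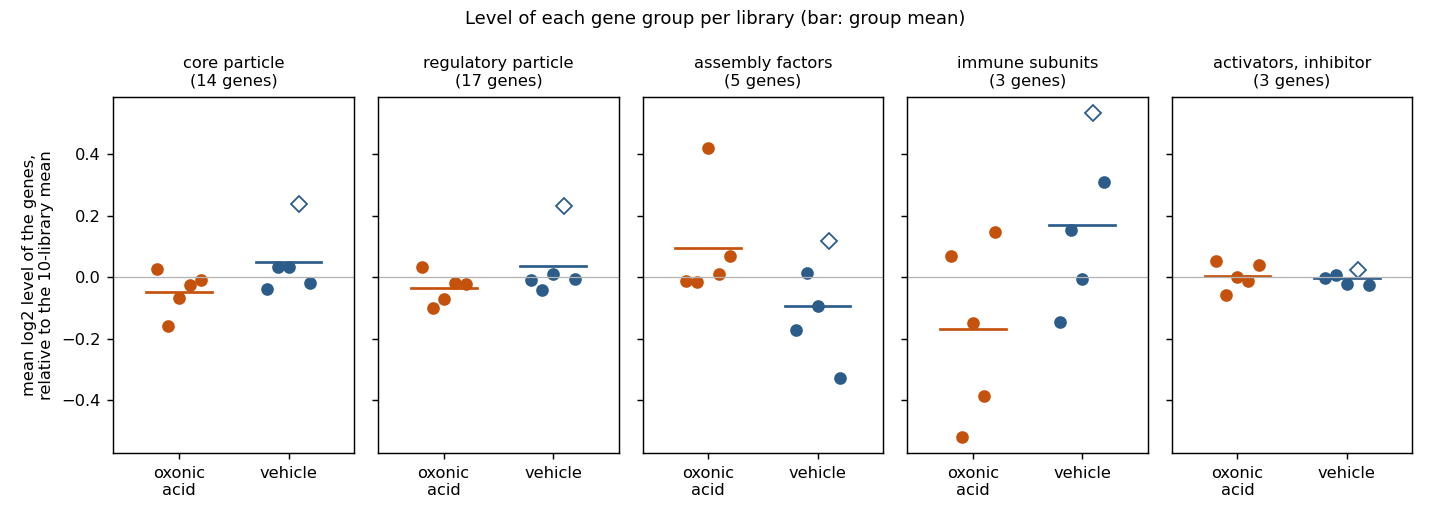
Mean log2 level of 5 gene groups in each library (y axis, relative to the 10-library mean), by diet group (x axis), with bars at group means and open diamonds for vehicle library 4. Core and regulatory particle peak in vehicle library 4 at 0.24 and 0.23, and the immune subunits spread wider, from -0.52 to 0.53. The assembly factors run from -0.33 to 0.42, highest in oxonic acid library 3, where Pomp was listed at 11.04 FPKM.

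Members lie on 17 chromosomes and mostly far from each other, apart from the pair Psme1 and Psme2 and the pair Psmb5 and Psmb11 on chromosome 15. A gene starting on the opposite strand within 1000 bp was present for 5 of the 37 measured members (13.5%) and for 1325 of 13408 protein-coding genes tested (9.88%). These neighbours were Ss18l1 beside Psma7, Mrpl32 beside Psma2 at 192 bp, Ftsj3 beside Psmc5, Sirt3 beside Psmd13 and Rnf31 beside Psme2. Mrpl32, a mitochondrial ribosomal protein gene, differed by -0.12 where Psma2 differed by -0.11. Rnf31, which builds linear ubiquitin chains, differed by 0.04 where Psme2 differed by -0.15.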

How the data were processed

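The submitters deposited 1 table of FPKM, computed by the authors per gene and library from poly-A selected RNA. Per the submitters' processing notes, reads were handled with HISAT2 2.0.5, featureCounts 1.5.0-p3, fastp and StringTie 1.3.3b. Genome build, annotation and strand setting were not given in the sources used here. FPKM times gene length returned whole reads for 100% of values (within 0.01), 14.5 to 18.5 M (mega) per library, and no pair of libraries agreed within sampling noise (lowest chi-square per degree of freedom 4.79).

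Groups came from the treatment label, and columns were matched through the sample descriptions. Genes with a mean of at least 0.5 FPKM were compared on log2(FPKM + 0.5) with limma 3.58.1 in R 4.3.3 (trended eBayes, two-sided, Benjamini-Hochberg over 14508 genes, threshold 0.05). The pseudocount understates differences of low genes, and FPKM are relative, so abundant transcripts shift the share of the rest. Ratios were tested by exact permutation over 252 arrangements in Python 3.11.15, and figures used matplotlib 3.10.9. The code was tested on simulated data.

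The members and lists were chosen with earlier results of these data known. Named genes are the highest, the lowest and the 2 with the smallest p in each role group, members whose groups do not overlap, the smallest p of each pathway list, and a fixed set with the catalytic and immune subunits. Other genes, such as Mrpl32, Rps27a and LOC100911238, were named after their values were seen. Alternatives covered the pseudocount, filter, library scaling, limma voom on recovered reads, library quality weights, a replicate block, runs of sample numbers and leaving out each library.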

Additional observations from a re-analysis of the deposited data

Results flagged for a closer look

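In 64 groups of 5 libraries (the named genes in each diet group), a library was listed when its gap to the nearest other library, divided by the range of the group, exceeded 0.71, Dixon's 95% critical value. Chance lists about 1 in 20 independent groups, and here it was 8 of 64, of which 5 were vehicle library 4. These groups are not independent, because the genes share the same libraries and some were named for their values. The count therefore cannot be judged against that rate. In the vehicle group that library was the highest for Psmc3, at 100.9 FPKM against 75.9 to 81.4 FPKM in the other 4. It was also the highest for Psmc6 (42.6 FPKM against 32.9 to 34.4), for Psmd7 (49.5 FPKM against 38.9 to 41.4) and for Psmd14 (32.4 FPKM against 22.4 to 24.5). For Nfe2l1 it was the lowest, at 37.4 FPKM against 41.6 to 43.2 FPKM.

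In the oxonic acid group, library 3 was the highest for Nfe2l1, at 48.6 FPKM against 43.3 to 44.2 FPKM, and for Pomp, at 11.04 FPKM against 0.894 to 1.76 FPKM. Library 2 was the lowest for Psmb4, at 151.9 FPKM against 173 to 176 FPKM.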

How the results depend on the processing

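Under the alternatives tried, 0 members passed in any. Library quality weights and leaving out vehicle library 1 each called 1 gene of all those tested, where 0 were called otherwise in the fit reported, so leaving out single libraries gave 0 to 1. With the replicate block, which the numbers do not justify (same-numbered libraries correlated at -0.0132 to 0.203), 0 genes were called and the member median stayed at -0.08. The count of members below 0 ran from 22 to 33 over all alternatives. The activator and inhibitor median of 0.08 was 0.0198 without a filter, where Psme1 enters, and 0.0311 within run B of the sample numbers (1 oxonic acid and 3 vehicle libraries). The Psmb8 to Psmb5 ratio was 0.13 within run C (1 and 2 libraries). The Psmb9 to Psmb6 ratio ran from -0.31 to -0.22 when single libraries were left out. It passed only without vehicle library 3 (exact permutation, adjusted p = 0.0476, against 0.0714 to 0.143 without any other). Of 690 values tried for 30 named genes, 13 changed sign, none of them passing. Within run B these were Psma7 (0.0545), Psmd2 (0.0745), Psmd14 (0.0658) and Psmd11 (-0.0357), and within run C Psmb7 (0.10), Psmb8 (0.10) and Psmd10 (-0.38). With the runs as a block they were Psmb7 (0.0266) and Psmd10 (-0.11). Leaving out single libraries gave -0.10 to 0.0022 for Psmb6, reversed without vehicle library 4 and at 0.0099 without that and oxonic acid library 3. For Psmd10 it gave -0.17 to 0.16, reversed without oxonic acid library 3 (-0.02) or vehicle library 1. The cause was not tested. In run A there were 3 oxonic acid libraries and 0 of vehicle, so no difference within it could be given.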
